A study of Mus musculus with 17 samples.

Results

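The 6 mature microRNAs (miRNAs) described here were far more abundant in the end-point than in the start-point fecal exosomes of mice lacking interleukin 10: mmu-miR-1956, mmu-miR-3101-3p, mmu-miR-5627-5p, mmu-miR-188-3p, mmu-miR-598-5p and mmu-miR-7220-5p, written below without the species prefix. They were chosen by their measured level, in CPM (counts of a miRNA after scaling every library to a total of 1000000), which was much higher at the end-point, and they come from 6 different hairpins outside the mirtrons, whose hairpins are excised by splicing. All 6 were among the 1487 small RNAs (smRNAs) of the deposited table and among the 1270 that passed the filter on low counts. Since the time point chose them, their end-point levels are given as a description with no test. No numerical limit was set for the choice, and 39 of the 1270 smRNAs had a fold change at or above the lowest of the 6, so other smRNAs of similar fold were not included.

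The study followed smRNAs in exosomes, small membrane vesicles shed by cells, through the course of bowel disease in this strain. All libraries came from IL-10 KO mice (C57BL/6J background), which carry a germline deletion of the interleukin 10 gene and develop intestinal inflammation, obtained at 4 weeks of age, caged singly and given no agent. No wild-type library was analysed here, so what changes with age and what changes with disease cannot be told apart. The 10 start-point libraries came from 10 mice, 7 male and 3 female, and the 7 end-point libraries from 6 of these mice, with 5 libraries from males and 2 from females. End-point libraries 1 and 2 both carry the label of mouse 1, and the labels give no age for either time point.

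A miRNA is cut from a hairpin precursor whose arms, called 5p and 3p, each give a short RNA. Usually one arm is loaded into an Argonaute protein and kept, while the opposite arm is degraded, and the loaded arm finds its targets mainly through its seed, bases 2 to 8 from the 5′ end. Stool contains vesicles from the gut lining, from blood cells in the gut wall and lumen, and from bacteria and food, and its RNA is exposed to nucleases. A CPM in feces therefore describes the share of a miRNA in what was recovered, and fewer cells of a type and less RNA per cell cannot be told apart.

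Mature sequences from RefSeq, with positions on GRCm38.p6, were found for 4 of the 6 miRNAs, and are shown to compare the seeds, which are in capitals.
miR-1956: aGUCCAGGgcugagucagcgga
miR-3101-3p: uAGCUUUGguggauggucuuu
miR-5627-5p: aGAGGGUGcgccgggcccugcg
miR-188-3p: cUCCCACAugcaggguuugca
The 4 seeds were all different. Among the 1254 miRNAs of the table (of 1439) for which a sequence was found, 1 other had the seed of any of them. This was miR-7223-5p, which has the seed of miR-3101-3p and is shown for that comparison.
miR-7223-5p: uAGCUUUGcugaggugucgg
Start-point libraries averaged 515 ± 381 CPM of it (SD, n = 10), and end-point libraries 366 ± 364 CPM (SD, n = 7). Its log2 fold change was -0.15 ± 0.51 (SE), with an edgeR adjusted p of 0.842. No sequence was found for miR-598-5p and miR-7220-5p.

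The hairpins fall into those that overlap an exon of a protein-coding gene and those inside an intron, by the GENCODE vM21 annotation. Mir1956 (chromosome 3, 138526421 to 138526485, plus strand) overlaps the 5′ UTR of a transcript of Eif4e, the gene of the cap-binding translation initiation factor, on the same strand. Mir3101 (chromosome 7, 27176006 to 27176093, minus strand) overlaps an exon of Rab4b, which codes for a small GTPase of endosomal recycling, and lies in the 3′ UTR of a transcript of the predicted gene Gm21983, both on its own strand. Mir5627 (chromosome 12, 44210313 to 44210373, plus strand) overlaps the 5′ UTR of Dnajb9, the gene of an endoplasmic reticulum co-chaperone, on the opposite strand. How reads were assigned where a hairpin overlaps an exon is not given in the sources used here, and counts of these 3 are uncertain in that respect. Mir188 (chromosome X, 7247989 to 7248056, minus strand) lies in an intron of Clcn5, the gene of an endosomal chloride/proton exchanger. Mir598 (chromosome 14, 63727189 to 63727267) lies in an intron of Xkr6, and Mir7220 (chromosome 18, 60953873 to 60953932) in an intron of Camk2a, which codes for a subunit of a calmodulin-dependent kinase.

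Together the 6 miRNAs held 0.111 ± 0.0378% of all counts in start-point libraries (SD, n = 10), and 3.94 ± 2.45% in end-point libraries (SD, n = 7). The lowest end-point share was 0.694% in library 5 (95% Wilson interval 0.648% to 0.743%) and the highest was 6.96% in library 7 (6.76% to 7.16%). These intervals cover counting error only, and they are narrow beside the differences between libraries. Total counts ranged from 87527 to 178075 at the start-point and from 32320 to 161862 at the end-point. End-point libraries 1, 3 and 7 were the 3 below 75000 counts. A count of 0 would allow up to 16.8 CPM in the deepest library and 92.8 CPM in the shallowest, counting 3 counts as the limit, and none of the 6 miRNAs was at 0 in any library.

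**Figure D1:**
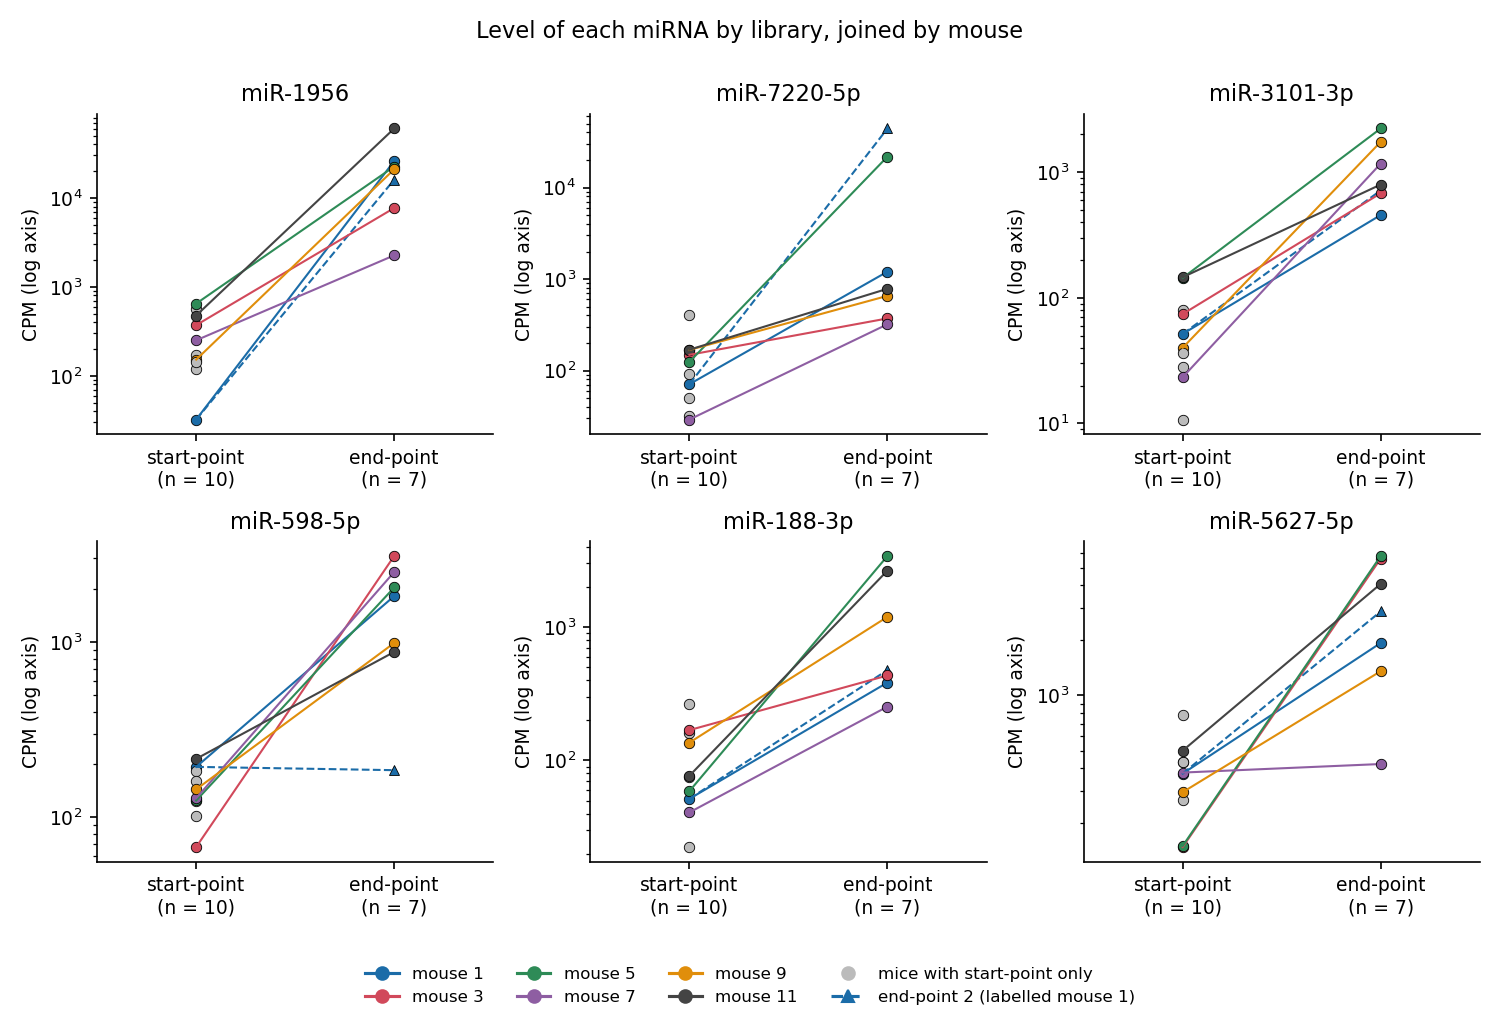
CPM on a log axis of each of the 6 miRNAs in the 10 start-point and 7 end-point libraries, 1 point a library, with lines joining libraries of the same mouse and grey points for mice with a start-point library only. For miR-1956 and miR-3101-3p every end-point library lies above every start-point library, and the triangle of end-point library 2 is the highest for miR-7220-5p and the lowest for miR-598-5p.

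miR-1956 had the highest median and mean level of the 6 at the end-point, and the largest ratio of end-point to start-point median CPM, 99.4. Its level ran from 32.3 to 649 CPM at the start-point, with a median of 211 CPM, and from 2262 CPM in library 5 through a median of 21000.5 CPM in library 6 to 60384 CPM in library 7 at the end-point. The lowest end-point library lay above every start-point library. The start-point levels rested on 5 to 99 counts and the end-point levels on 249 to 3856 counts. Start-point libraries averaged 293 ± 209 CPM (SD, n = 10), and end-point libraries 22282 ± 18794 CPM (SD, n = 7). The log2 fold change, scaled with TMM factors (which set aside smRNAs that differ strongly between libraries), was 6.78 ± 0.75 (SE), the 4th highest of the 1270. Library 7 held 38.7% of the summed end-point CPM, and the ratio of mean CPM was 76.2 with it and 54.5 without it.

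miR-3101-3p was the other miRNA whose groups did not overlap, so 2 of the 6 had every end-point CPM above every start-point CPM, as had 0.472% of all tested smRNAs (6 of 1270). It ran from 10.7 to 145.97 CPM at the start-point, with a median of 45.8 CPM, and from 457 CPM in library 1 through a median of 799 CPM in library 7 to 2233 CPM in library 4 at the end-point. Of the 6 it had the smallest spread between end-point libraries, with a highest level 4.89 times the lowest. The mean went from 63.4 ± 48.1 CPM (SD, n = 10) at first to 1115 ± 650 CPM (SD, n = 7). The log2 fold change was 4.90 ± 0.55 (SE). Its start-point levels rested on 1 to 22 counts a library, so the start-point end of that fold is the less precise one.

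miR-5627-5p was the most abundant of the 6 at the start-point, from 149 to 786 CPM with a median of 377 CPM. At the end-point it ran from 422 CPM in library 5 through a median of 2879 CPM in library 2 to 5784 CPM in library 4. Of the 7 end-point libraries, 6 lay above the highest start-point library, and library 5 lay within the start-point range. Means were 377 ± 186 CPM (SD, n = 10) early and 3150 ± 2081 CPM (SD, n = 7) late. The log2 fold change was 3.70 ± 0.52 (SE), the lowest of the 6. No single library held more than 26.2% of its summed end-point CPM.

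miR-188-3p ran from 22.5 to 267 CPM at the start-point, with a median of 76.0 CPM. At the end-point it ran from 253 CPM in library 5 through a median of 476 CPM in library 2 to 3405 CPM in library 4, followed by library 7 at 2647 CPM. All but 1 of the 7 end-point libraries lay above the highest start-point library, with library 5 just inside the start-point range. Libraries 4 and 7 held 68.9% of the summed end-point CPM. The ratio of mean CPM was 11.9 with all libraries, 8.49 without library 4 and 5.18 without both, beside a ratio of medians of 6.26. Means were 106 ± 75.9 CPM (SD, n = 10) early and 1256 ± 1266 CPM (SD, n = 7) late, and the log2 fold change was 4.40 ± 0.58 (SE).

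miR-598-5p had the most even start-point levels of the 6, from 67.5 to 215.1 CPM with a median of 136 CPM. At the end-point it ran from 185 CPM in library 2 through a median of 1827 CPM in library 1 to 3094 CPM in library 3. Library 2 lay within the start-point range and the other 6 end-point libraries above it, from 877 CPM upward. Means were 144.1 ± 44.8 CPM (SD, n = 10) early and 1646 ± 1016 CPM (SD, n = 7) late, and the log2 fold change was 3.85 ± 0.44 (SE). Its highest library held 26.9% of the summed end-point CPM.

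miR-7220-5p was the miRNA whose mean rested on single libraries. It ran from 29.2 to 404 CPM at the start-point, with a median of 108 CPM, and from 321 CPM in library 5 through a median of 783 CPM in library 7 to 44266 CPM in library 2 at the end-point. Library 4 followed at 21809 CPM, while the other 5 libraries stayed between 321 and 1206 CPM. The 2 high libraries held 95.2% of the summed end-point CPM, and libraries 3 and 5 lay within the start-point range. In counts, library 2 held 7165 and library 3 held 12. The ratio of mean CPM was 77.0 with all 7 libraries, 32.5 without library 2 and 5.18 without libraries 2 and 4, beside a ratio of medians of 7.25. Means were 129 ± 110 CPM (SD, n = 10) early and 9916 ± 17076 CPM (SD, n = 7) late. The log2 fold change of 7.86 ± 1.12 (SE), the 2nd highest of the 1270, became 6.17 without library 2, and its SE was the largest of the 6.

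**Figure D2:**
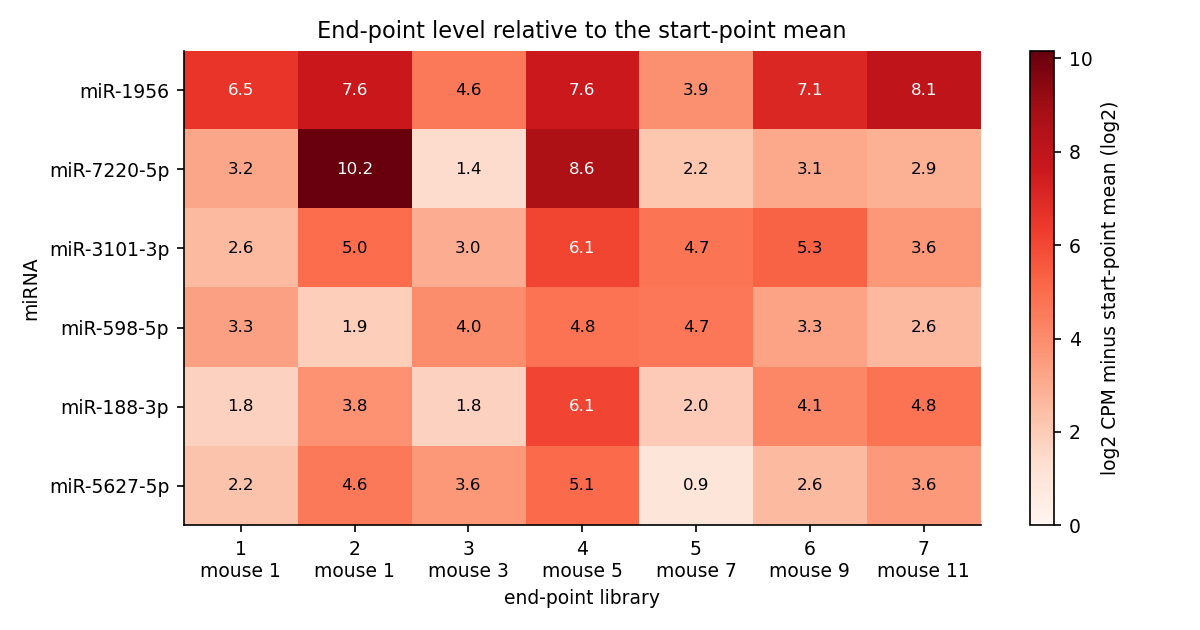
Log2 CPM (TMM-scaled, prior count 2) of each miRNA in each end-point library minus its start-point mean, with the library number and its mouse below and darker red for a larger difference. The row of miR-7220-5p holds both the highest value, 10.16 in library 2, and values of 1.40 and 2.16 in libraries 3 and 5.

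The high libraries were not the same for each miRNA, although library 4, from mouse 5, was high for most. It was the highest end-point library for 3 of the 6 by CPM (miR-3101-3p, miR-5627-5p and miR-188-3p), among the top 2 for 4 of the 6, and never among the bottom 2. Library 5, from mouse 7, was the lowest for 4 of the 6 (miR-1956, miR-7220-5p, miR-188-3p and miR-5627-5p) but second highest for miR-598-5p at 2507 CPM. Library 2 was the highest for miR-7220-5p and the lowest for miR-598-5p. Libraries 2 and 4 also had the lowest TMM factors of all, 0.381 and 0.551, against 0.772 to 1.90 at the start-point, and a low factor raises every TMM-scaled level of its library.

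Leaving out any single end-point library kept all 6 folds positive. The log2 fold change ranged from 6.63 to 6.97 for miR-1956, from 4.58 to 5.19 for miR-3101-3p and from 3.36 to 3.89 for miR-5627-5p. It was 3.69 without library 4 and 4.42 to 4.59 without any other for miR-188-3p, and it ranged from 3.59 to 4.10 for miR-598-5p, and from 6.17 to 8.24 for miR-7220-5p. The median over the 6 was 4.65, beside -0.18 over all 1270 smRNAs. Scaling to library totals alone gave 3.84 beside -0.67. By that scaling the folds were 6.25 for miR-1956, 6.25 for miR-7220-5p (which moved most, from 7.86), 4.12 for miR-3101-3p, 3.50 for miR-598-5p, 3.56 for miR-188-3p and 3.06 for miR-5627-5p. Without the 3 libraries below 75000 counts they were higher for all 6, from 4.16 for miR-5627-5p to 8.82 for miR-7220-5p. The limma-voom fit gave 4.68 ± 0.97 (SE) for miR-7220-5p, where edgeR gave 7.86.

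**Figure D3:**
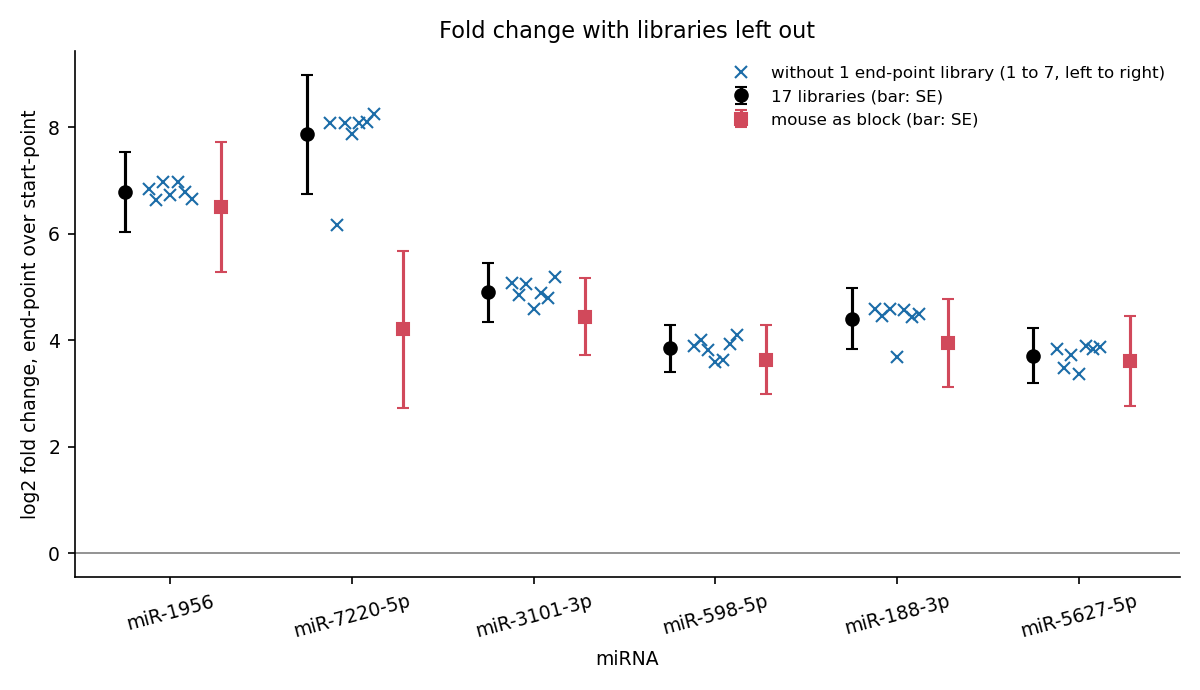
Log2 fold change of each miRNA, end-point over start-point, from all 17 libraries (black, bar SE), with each end-point library left out in turn (blue crosses, libraries 1 to 7 from left to right) and with mouse as a block (red, bar SE). The cross of miR-7220-5p without library 2 lies at 6.17 and that of miR-188-3p without library 4 at 3.69, each apart from the other 6 crosses of its miRNA, and all points lie above 0.

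There were 6 mice with libraries at both time points. Taking the mean of both end-point libraries for mouse 1, all 6 miRNAs were higher at the end-point in 6 of 6 mice, by TMM-scaled levels and by library totals; 8.19% of tested smRNAs (104 of 1270) were likewise higher in every mouse. The mean difference within mice on the log2 scale was 6.26 ± 2.31 (SD, n = 6) for miR-1956, 4.04 ± 2.78 for miR-7220-5p, 4.07 ± 1.32 for miR-3101-3p, 3.60 ± 1.27 for miR-598-5p, 3.65 ± 2.01 for miR-188-3p and 3.40 ± 1.96 for miR-5627-5p. The mice differed in which miRNA moved least. Mouse 3 had the smallest difference for miR-7220-5p (0.86), miR-188-3p (0.91) and miR-3101-3p (2.55), yet the largest for miR-598-5p (4.81), whose level there went from 67.5 to 3094 CPM. Mouse 7 had the smallest for miR-5627-5p, 0.22, as its level went from 379 to 422 CPM, and for miR-1956, 3.19, from 251 to 2262 CPM. Mouse 5 had the largest for miR-7220-5p (8.20), miR-188-3p (6.42) and miR-5627-5p (6.04). In mouse 9 miR-3101-3p went from 40.0 to 1748 CPM, its largest difference at 5.77, and in mouse 11 miR-1956 went from 476 to 60384 CPM.

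With mouse as a block in the fit, the fold of miR-7220-5p changed most, from 7.86 to 4.21 ± 1.47 (SE), and to 3.34 with library 2 left out as well. The other 5 moved by less than their SE: 6.50 ± 1.22 for miR-1956, 4.44 ± 0.72 for miR-3101-3p, 3.63 ± 0.65 for miR-598-5p, 3.95 ± 0.83 for miR-188-3p and 3.60 ± 0.85 for miR-5627-5p. The blocked fit called 8.19% of all smRNAs (104 of 1270; 3.78% higher and 4.41% lower), against 33.7% (428 of 1270) without the block. In the blocked fit the 4 mice with a start-point library only carry no information on the time difference. The 2 fits therefore differ in the mice they rest on as well as in the pairing.

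The pair of end-point libraries labelled mouse 1 differed widely for some of the 6. Library 1 held 1206 CPM of miR-7220-5p and library 2 held 44266 CPM, beside 71.0 CPM in the start-point library of that mouse. miR-598-5p went the other way, at 1827 CPM in library 1 and 185 CPM in library 2, beside 193.5 CPM at the start-point. miR-1956 was high in both, at 26011 and 16069 CPM, from 32.3 CPM. The chi-square per degree of freedom between the counts of this pair was 100.4, against a smallest value of 10.1 for any pair of libraries, so these are not the same counts deposited again. Whether they are separate samples of mouse 1 is not shown by this, and they were kept as 2 libraries as labelled.

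The start-point and end-point levels of a miRNA were compared across the 6 mice, and none of 6 relations passed after adjustment. The largest was for miR-5627-5p, with Pearson r of -0.63 (exact permutation p = 0.171, adjusted 0.907) and Spearman rho of -0.77 (exact permutation p = 0.103, adjusted 0.617). Without the 2 mice farthest from the median of the start-point level it had r of -0.39.

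Within the end-point libraries the miRNAs other than miR-598-5p tended to be high together on the TMM scale, but no pair passed a test after adjustment. Pearson r over the 7 libraries was positive for 11 of 15 pairs, with a median of 0.59 and a range from -0.57 to 0.77. All 4 negative pairs involved miR-598-5p, whose r was -0.57 with miR-1956, -0.28 with miR-7220-5p, -0.26 with miR-5627-5p and -0.07 with miR-188-3p. The highest r was between miR-1956 and miR-188-3p, 0.77 (exact permutation p = 0.0468, adjusted 0.394 over 30 relations), with rho of 0.68 (exact permutation p = 0.110, adjusted 0.493) and r of 0.74 without the 2 farthest libraries. The high r of miR-7220-5p with miR-5627-5p, 0.72, was -0.14 without the 2 farthest libraries and so rested on them. For each pair, the farthest libraries were those farthest from the median of its first-named miRNA. The end-point libraries share 1 mouse label among 2 of them, which these p-values take no account of.

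Scaling to library totals alone gave a median r of 0.18 over the end-point pairs, with 9 of 15 positive and 2 of the 6 negative pairs not involving miR-598-5p, so the size of this relation depended on the TMM factors, which multiply all miRNAs of a library together. For miR-1956 and miR-188-3p the r was then 0.71 (exact permutation p = 0.0637, adjusted 0.679). Within the start-point libraries the median r was -0.11, with 6 of 15 pairs positive, on the TMM scale, and 0.15 with 10 of 15 positive by library totals, so its direction turned with the scaling. The largest r on the TMM scale was -0.73 between miR-7220-5p and miR-598-5p (permutation p = 0.0174, adjusted 0.394), and it was -0.55 without the 2 farthest libraries. Its rho was -0.85 (permutation p = 0.00282, adjusted 0.0846). By library totals the r of this pair was -0.26 and its rho -0.12. The largest by library totals was 0.75 between miR-7220-5p and miR-188-3p (permutation p = 0.0132, adjusted 0.395), with rho of 0.75 (permutation p = 0.0173, adjusted 0.520) and r of 0.53 without the 2 farthest libraries; on the TMM scale it was 0.50. No relation of a miRNA with the library total passed after adjustment over 12. The largest was r = 0.85 for miR-3101-3p within the end-point (exact permutation p = 0.0200, adjusted 0.240), with rho of 0.71 (exact permutation p = 0.0881, adjusted 0.707). Without the 2 libraries farthest from the median library total, r was 0.68.

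**Figure D4:**
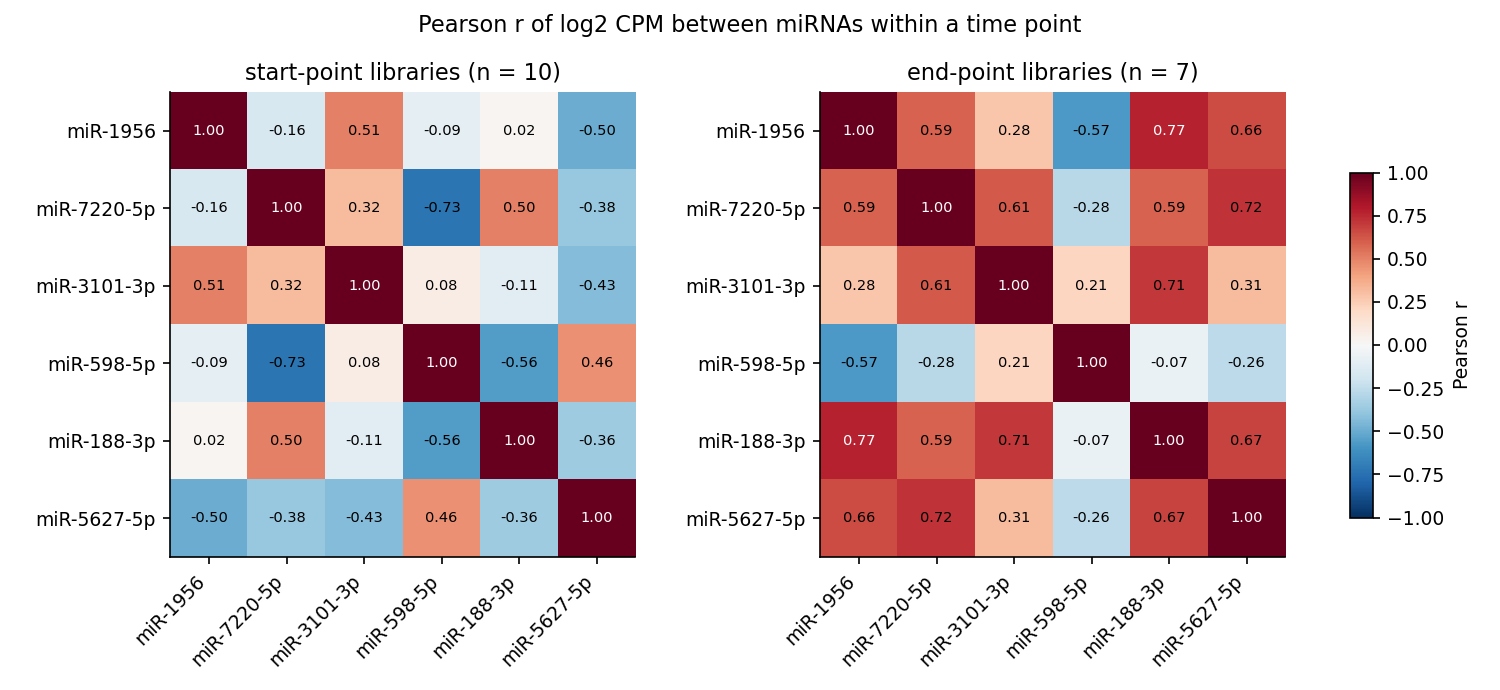
Pearson r of log2 CPM (TMM-scaled) for each pair of the 6 miRNAs within the 10 start-point libraries (left) and the 7 end-point libraries (right), red for positive and blue for negative. In the end-point panel, on this scale, blue is confined to miR-598-5p, down to -0.57 with miR-1956, and none of the r values passed after adjustment.

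The opposite arm of the same hairpin is a comparison that the choice of the 6 did not use. In the table were 5 opposite arms (miR-1956 has none listed) and 4 passed the filter. Their mature sequences, where RefSeq gave one, are shown for the contrast with the arms above, with the seeds in capitals.
miR-3101-5p: gGUACCAUugacuaaagcuag
miR-5627-3p: aCAGGGCUcuccggcgccccucgu
miR-188-5p: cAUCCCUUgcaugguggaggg
One of the 4 tested opposite arms passed, and it was higher, against 33.7% of all smRNAs called in either direction and 17.4% called higher. This was miR-5627-3p, which averaged 177 ± 122 CPM in start-point libraries (SD, n = 10) and 474 ± 455 CPM in end-point libraries (SD, n = 7). Its log2 fold change was 2.13 ± 0.53 (SE), with an edgeR adjusted p of 0.00358, and it was higher in 6 of 6 mice. Without end-point library 4, its highest at 1223 CPM, the fold was 1.19, and by library totals it was 1.41 with an adjusted p of 0.0561.

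The other tested opposite arms did not follow the miRNA of the same hairpin. miR-7220-3p averaged 833 ± 571 CPM in start-point libraries (SD, n = 10), above miR-7220-5p, and 501.4 ± 623 CPM in end-point libraries (SD, n = 7). Its log2 difference was -0.53 ± 0.43 (SE; edgeR adjusted p = 0.348). In the 2 libraries where miR-7220-5p reached 44266 and 21809 CPM, miR-7220-3p was at 61.8 and 145.4 CPM. miR-598-3p averaged 222 ± 124 CPM early (SD, n = 10) and 66.9 ± 52.1 CPM late (SD, n = 7), a log2 difference of -0.93 ± 0.55 (SE; edgeR adjusted p = 0.193). miR-188-5p averaged 157 ± 117 CPM early (SD, n = 10) and 27.0 ± 30.9 CPM late (SD, n = 7), with 0 counts in 3 end-point libraries and a log2 difference of -1.41 ± 0.72 (SE; edgeR adjusted p = 0.127). Within mice, the TMM-scaled level of miR-7220-3p was lower at the end-point in 6 of 6 mice (in 5 of 6 by library totals), and those of miR-598-3p and miR-188-5p in 5 of 6. By library totals the last pair passed, at -1.66 with an adjusted p of 0.0217 for miR-598-3p and -2.34 with an adjusted p of 0.0129 for miR-188-5p. miR-3101-5p did not pass the filter. It had 0 counts in end-point libraries 1 and 4 but 557 CPM in library 3 and 1425 CPM in library 7, against 13.5 to 123 CPM at the start-point. Without the filter it passed as higher, at 2.44 (edgeR adjusted p = 0.0235), but without the 3 libraries below 75000 counts it was at -0.39 (adjusted p = 0.728).

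Arm shares were computed only for the hairpins of the chosen arms, so no share over other hairpins stands beside them. They use counts that chose the arm, so a rise was partly set in advance. The share of a hairpin's counts that the chosen arm held was, as a description, higher at the end-point for the 5 hairpins. For miR-598-5p it averaged 42.4 ± 14.8% in start-point libraries (SD, n = 10) and 94.2 ± 4.51% in end-point libraries (SD, n = 7), with no overlap. In end-point library 2, where the level of miR-598-5p was within the start-point range, its share was 85.7% (30 of 35 counts, 95% Wilson interval 70.6% to 93.7%). The highest start-point share was 68.8% (51.4% to 82.0%), and the intervals of these shares overlap. For miR-188-3p the share was 43.3 ± 19.8% and then 94.95 ± 9.09%, also without overlap. For miR-7220-5p it was 13.2 ± 5.89%, making it the lesser arm in all 10 start-point libraries, and then 67.8 ± 25.2%, from 38.7% (95% Wilson interval 23.7% to 56.2%) in library 3 to 99.9% (99.7% to 99.9%) in library 2. For miR-5627-5p, whose opposite arm rose too, it was 68.5 ± 15.05% and then 86.6 ± 7.25%, with overlap. For miR-3101-3p it was 53.5 ± 26.1% and then 83.5 ± 26.6%, with the other 5 end-point libraries at 95.1% or more, library 3 at 55.0% (95% Wilson interval 39.8% to 69.3%) and library 7 at 35.9% (28.5% to 44.1%).

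**Figure D5:**
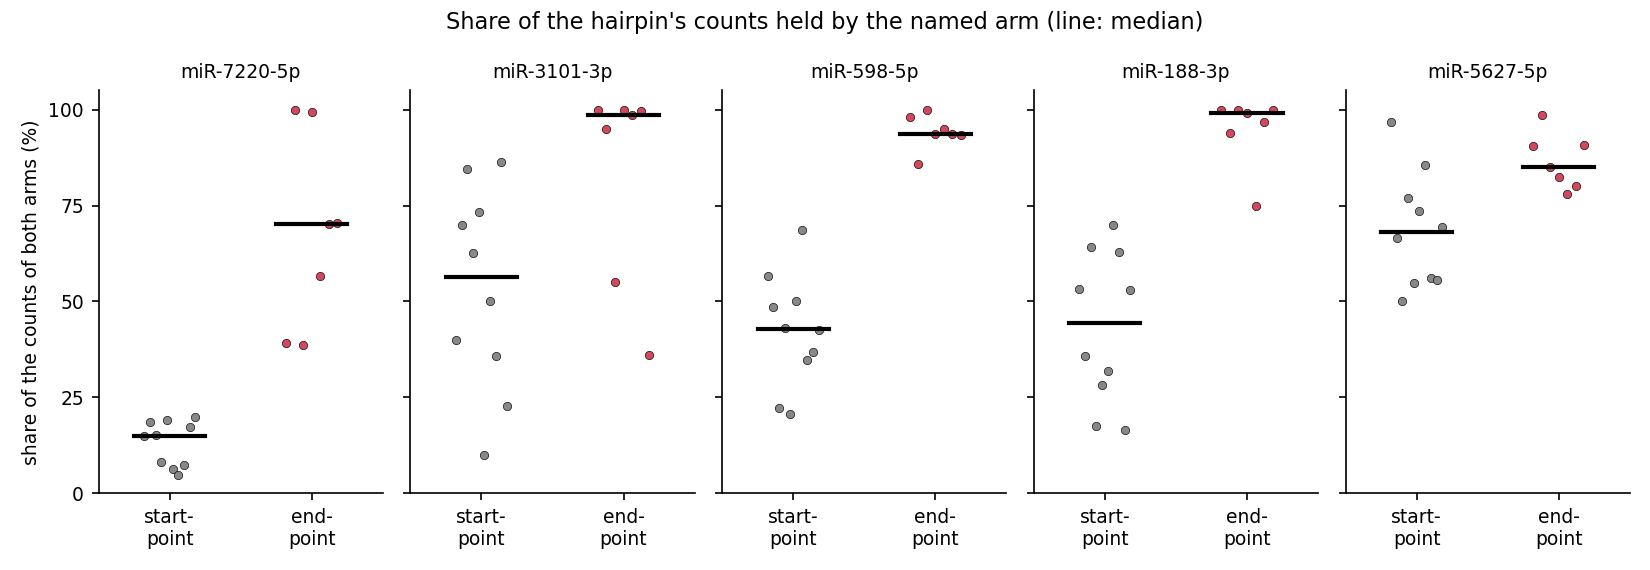
Share (%) of the counts of both arms of a hairpin held by the named arm, 1 point a library, with the median as a black line, for the 5 miRNAs whose opposite arm was in the table. The start-point and end-point libraries do not overlap for miR-7220-5p, miR-598-5p and miR-188-3p. The shares use counts that chose the arm, and no share over other hairpins was computed for comparison.

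Mir188 belongs to a group of miRNA hairpins in the same region of the X chromosome, including Mir362, Mir500, Mir501 and Mir532, which can come from the same transcript. Of 11 mature miRNAs listed for this cluster beside miR-188-3p, 9 were in the table and tested, 2 of them passed as higher and 1 as lower, against 17.4% and 16.3% of all smRNAs. Their median log2 fold change was -0.69, beside -0.18 over all smRNAs and 4.40 for miR-188-3p. The cluster miRNA nearest to miR-188-3p in fold was miR-501-5p, whose sequence is given with that of miR-362-5p, the other one that passed as higher.
miR-501-5p: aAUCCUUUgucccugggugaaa
miR-362-5p: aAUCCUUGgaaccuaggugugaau
miR-501-5p rose from 155.1 ± 92.9 CPM early (SD, n = 10) to 949 ± 1202 CPM late (SD, n = 7), a log2 difference of 3.47 ± 0.56 (SE; edgeR adjusted p = 0.00011). The fold was 2.07 without end-point library 4 and 2.73 with mouse as a block (adjusted p = 0.0156). miR-362-5p passed at 1.65 ± 0.60 (SE; edgeR adjusted p = 0.0352), but at 0.75 with an adjusted p of 0.289 without end-point library 3, and its fold turned to -0.74 (adjusted p = 0.228) without the 3 libraries below 75000 counts. With mouse as a block it was 0.97 (adjusted p = 0.409), and its adjusted p was 0.105 by library totals and 0.346 by limma-voom. The lower one was miR-362-3p, at -2.32 ± 0.60 (SE; edgeR adjusted p = 0.00505), which with mouse as a block was at -2.52 with an adjusted p of 0.0593. Beside miR-188-3p and miR-501-5p, the tested members of the cluster ranged from -2.32 to 1.65. The place of miR-188-3p above them was set by the choice, which took miRNAs much higher at the end-point.

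No difference between female and male libraries passed for any of the 6 miRNAs with time point as a covariate, and 0 of 1270 smRNAs (0%) were called for sex by edgeR, although 130 had an unadjusted p under 0.05 and DESeq2 called 35. The largest difference among the 6, female minus male, was -0.82 ± 0.46 (SE) on the log2 scale for miR-598-5p, with an edgeR adjusted p of 0.555. Its end-point levels were 932 ± 77.4 CPM (SD, n = 2) in females and 1932 ± 1090 CPM (SD, n = 5) in males. The smallest was -0.06 ± 0.70 (SE) for miR-1956 (edgeR adjusted p = 0.982). Its start-point means were 258 CPM in females and 307 CPM in males. At the end-point they were 40692 ± 27848 CPM (SD, n = 2) and 14918 ± 9934 CPM (SD, n = 5). The fit gives a single sex difference for both time points. By mean CPM its direction changed between them for miR-1956, miR-7220-5p, miR-598-5p and miR-5627-5p, but not for miR-3101-3p and miR-188-3p. The end-point held 2 female libraries, so these differences are imprecise. The sex fit also took the 17 libraries as independent, although they came from 10 mice. In male libraries alone the folds of all 6 stayed positive, from 4.00 for miR-5627-5p to 8.85 for miR-7220-5p.

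Other smRNAs that varied most like the 6, once the mean of each time point was removed, were miR-874-5p, miR-223-3p, miR-6953-3p, miR-3077-3p and miR-384-5p. Their mean Pearson r with the 6 over 17 libraries was 0.54, 0.52, 0.50, 0.49 and 0.49, against a median of 0.038 over the 1264 other tested smRNAs. They were picked as the highest by this r, so their distance from the median was set by the ranking. All share the library scaling with the 6, and for all 5 library 4 was the highest of the end-point libraries. By library totals 3 of the 5 stayed among the 5 most alike, while miR-384-5p came 17th and miR-6953-3p 54th. In the end-point libraries miR-384-5p had 0 to 16 counts, with 0 in 2 libraries, and miR-6953-3p had 0 in 1 library. Among the 5 named, miR-384-5p, which was not one of those 3, did not pass for time point, at a log2 difference of -0.67 ± 0.68 (SE; edgeR adjusted p = 0.465).

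Markers of cell types that could shed vesicles into stool were read beside these libraries, and their part in the results was not tested. For comparison with the calls in each list, 17.4% of all tested smRNAs passed as higher and 16.3% as lower. Of 7 leukocyte miRNAs listed, 5 were in the table, and 1 of the 4 tested passed as higher and 1 as lower. Their summed level ran from 911 to 3690 CPM at the start-point and from 457 to 871 CPM in the end-point libraries other than 4, which stood at 3234 CPM. The higher one was miR-223-3p, abundant in neutrophils and other myeloid cells, with a log2 fold change of 2.38 ± 0.55 (SE; edgeR adjusted p = 0.00187), at 1737 CPM in end-point library 4 and at most 313 CPM in the other 6. The lower one was miR-342-3p, abundant in lymphocytes, at -1.60 ± 0.43 (SE; edgeR adjusted p = 0.00663), and the median of the summed level was 1758 CPM at the start-point against 689 CPM at the end-point. Library 4 is also where miR-3101-3p, miR-5627-5p and miR-188-3p were highest. Start-point library 1 had a higher leukocyte sum, 3690 CPM, but held 51.6, 374 and 51.6 CPM of these miRNAs. Of 10 miRNAs of intestinal epithelium, 9 were in the table and tested, with 3 higher and 4 lower. Their summed level ran from 3778 to 19933 CPM at the start-point and from 3032 to 38181 CPM at the end-point, where libraries 2 and 4 were the highest at 38181 and 17437 CPM, as they were for miR-7220-5p. Most of that came from miR-200b-3p, at 35672 and 14434 CPM. Start-point libraries 3 and 4 also had high sums, 19933 and 18357 CPM, but held 149 and 50.5 CPM of miR-7220-5p. The passing ones of this list are named after their values were seen. The 3 higher ones were miR-215-5p at 3.51, miR-200b-3p at 3.28 and miR-141-3p at 2.86 on the log2 scale. The 4 lower ones were miR-192-5p at -2.77, miR-194-5p at -2.31, miR-375-3p at -2.30 and miR-31-5p at -2.30. The median of the sum was 9262 CPM early and 7309 CPM late. Of 5 muscle miRNAs, 3 were in the table, with 1 higher and 1 lower. The higher one was miR-143-3p at 2.87 on the log2 scale, and the lower one miR-133a-3p at -1.94. The sum of the 3 ran from 400 to 2169 CPM at the start-point. At the end-point it ran from 334 CPM in library 2 to 12136 CPM in library 7, the library with the most miR-1956. Most of the sum in library 7 came from miR-143-3p, at 11776 CPM. Library 2, with the lowest muscle sum, held 16069 CPM of miR-1956. Library 3, with a muscle sum of 5322 CPM, held 7704 CPM of it. Of 4 red cell miRNAs, 2 were in the table and the 1 tested did not pass, with sums of 149 to 1006 CPM and 12.4 to 530 CPM.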

How the data were processed

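Small RNA libraries from fecal exosomes were made with the QIAseq miRNA kit, per the labels' protocols, which adds molecular identifiers. The authors deposited 1 table of raw read counts per smRNA and library (1439 miRNAs, 48 piRNA loci, each with at least 10 counts in some library). The submitters' processing notes name bcl2fastq and GRCm38. The aligner, the counter and any use of the identifiers are not given in the sources used here; if PCR copies were kept, they add to the spread between libraries. Groups, mice and sexes came from the labels; that the libraries were separately prepared is not stated, so p-values measure the spread between these libraries.

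From the counts, edgeR 4.0.16 in R 4.3.3 (filterByExpr, TMM, quasi-likelihood F-test, Benjamini-Hochberg over 1270 smRNAs, threshold 0.05) gave log2 fold changes. The SE of an edgeR fold was computed as its absolute log2 value divided by the square root of the F statistic. Printed CPM use library totals without TMM factors. Log2 CPM used TMM and a prior count of 2. Correlations used exact permutation (end-point) or 100000 resamples (start-point, seed 1). The edgeR fit was tested on simulated data. Named smRNAs were the 6 miRNAs, their opposite arms, passing cluster miRNAs, same-seed miRNAs, the 5 most alike and passing markers. Up to 3 passing markers were planned, and further ones were named after their values were seen. The members and lists were chosen with earlier results of these data known. Mouse was not in the fit by default; deviations of same-mouse libraries from their group means correlated at -0.072 to 0.260 over 7 pairs (mean 0.094), and the pairing comes from the mouse labels. Alternatives were library totals, DESeq2 1.42.0 size factors and Wald test, limma 3.58.1 voom, no filter, no shallow libraries, libraries 1 and 2 summed, males only, mouse as block, a prior count of 0.5, each library left out and, added after seeing the data, edgeR's older quasi-likelihood method.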

Additional observations from a re-analysis of the deposited data

Results flagged for a closer look

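Of 22 groups of libraries examined for a value far from the rest (the 6 miRNAs and their opposite arms within each time point), 2 held one, where chance gives about 1 in 20 groups. Both concern opposite arms. The log2 CPM of miR-7220-3p was 10.47 in end-point library 1 (102 counts, 1863 CPM), against 7.48 to 8.70 in the other 6 end-point libraries. Without library 1, the log2 fold change of miR-7220-3p was -1.14 with an edgeR adjusted p of 0.0226, whereas with it the arm did not pass. The log2 CPM of miR-5627-3p was 5.0 in start-point library 1 (2 counts, 12.9 CPM), against 6.63 to 7.99 in the other 9.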

How the results depend on the processing

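No alternative run turned the fold of any of the 6 miRNAs. Their median log2 fold change, 4.65, ran from 4.13 to 4.85 with single libraries left out, and over all alternatives from 3.77 (block, library 2 left out) to 5.29 (no libraries below 75000 counts). The fold of miR-7220-5p was 4.68 by limma-voom. The count of smRNAs called for time point, 428, was 207 in male libraries, 104 with mouse as a replicate block and 85 with that block and end-point library 2 left out. Its split into 221 higher and 207 lower became 147 and 329 by library totals. The older edgeR method gave 401. Of the opposite arms, 1 was called, and 1 to 2 with a library left out; library totals, no filter, the DESeq2 test and limma-voom each gave 2, and the block without library 2 gave 0. Of the Clcn5 cluster, 3 were called, 2 to 3 with a library left out, 5 by DESeq2, and 1 with the block, with or without library 2. miR-362-5p turned to -0.74 (adjusted p = 0.228) without libraries below 75000 counts. For sex, DESeq2 called 35 smRNAs, none of them among the 6. Beyond the calls given here and beside the results, the replicate block changed no other call of a named opposite arm. The causes were not tested. Depth limits the start-point levels, which rested on as few as 1 count for miR-3101-3p and 3 for miR-7220-5p.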

Other observations

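The 4 miRNAs with a RefSeq sequence spanned a wide range of base composition, with a GC content of 42.9% for miR-3101-3p, 57.1% for miR-188-3p, 63.6% for miR-1956 and 81.8% for miR-5627-5p. The median over the 1079 tested miRNAs with a sequence was 54.5%. Across those miRNAs, which are not independent replicates, GC content and log2 fold change had a Spearman rho of -0.02. The 176 called higher had a median GC content of 54.5% and the 174 called lower 56.8%.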
